A study of Mus musculus with 15 samples.

Results

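Cells sorted from the brains of mice without Notch3 were compared with aorta of the same genotype. The brain group holds 5 arrays (A, B, C, D and F) of RNA from a FACS preparation labelled as smooth muscle cells and pericytes, and the aorta group holds 3 arrays (5558, 5559 and 6167) of RNA from explants. These 8 arrays of the 15 in the series were grouped by their titles, which give genotype and tissue. All mice were C57BL6J males of 10 to 12 weeks. The genotype is Notch3 -/- in both groups, so every difference below is between tissues that both lack the receptor. The remaining 7 arrays, 4 brain and 3 aorta, come from Notch3 +/- mice, and the same tissue comparison in them is set beside each result. There were no wild-type arrays here, and the labels describe neither the Notch3 allele nor the markers used in the sort. The design text names as many mice as there are brain arrays. Whether each aorta array is a mouse of its own is not stated, so the tests measure only the spread between these samples, which may be technical.

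Mural cells wrap the endothelial tube of blood vessels. In the aorta they are layered smooth muscle cells that contract and lay down elastic fibres and collagen. In brain they range from arteriolar smooth muscle to capillary pericytes, which share the basement membrane of the endothelium at the blood-brain barrier. Notch3 is a receptor of these cells: ligand on a neighbouring cell releases its intracellular part, which acts in the nucleus on target genes such as the Hes and Hey repressors. The comparison asks which of the features that separate brain mural cells from aorta are present when this receptor is missing.

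Many contractile genes are targets of serum response factor, which binds the CArG box. A search of 300 bases around the start site on both strands found a CArG box in 5 of the 35 contractile genes with a promoter in the RefSeq table (Myl9, Cnn2, Myl6, Vcl and Ldb3), or 14.3%. The same search found it in 1.81% of all 27025 genes with such a promoter, and in 11 of 348 genes (3.16%) with a promoter that were past 5% and at least 4-fold higher in aorta. The promoters of Myl9, a myosin light chain, and Ldb3, a Z-band protein, both higher in aorta below, are shown with the CArG box in capitals. They are from the GRCm38.p6 assembly, 5′ to 3′ on the strand of the gene, at chr2:156775214-156775513 on the plus strand for Myl9 and chr14:34588632-34588931 on the minus strand for Ldb3. A match describes the letters in this window and is not evidence of binding.
Myl9: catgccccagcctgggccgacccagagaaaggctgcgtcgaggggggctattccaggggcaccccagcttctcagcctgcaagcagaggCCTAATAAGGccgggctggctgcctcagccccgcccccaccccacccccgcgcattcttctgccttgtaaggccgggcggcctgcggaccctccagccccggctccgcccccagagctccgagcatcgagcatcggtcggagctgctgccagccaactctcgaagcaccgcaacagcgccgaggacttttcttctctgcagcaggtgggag
Ldb3: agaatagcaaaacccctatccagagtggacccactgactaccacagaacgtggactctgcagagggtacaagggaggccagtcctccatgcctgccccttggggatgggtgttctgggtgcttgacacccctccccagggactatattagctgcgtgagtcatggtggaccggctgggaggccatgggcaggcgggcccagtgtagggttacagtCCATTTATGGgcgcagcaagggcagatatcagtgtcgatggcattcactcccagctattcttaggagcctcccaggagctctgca

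The deposited values are intensities scaled to the same mean on each array. Replicates correlated at r of 0.955 to 0.967 within brain and 0.977 to 0.981 within aorta, against 0.821 to 0.852 between tissues. The tissues also differed in the RNA itself. For Actb the control probe set at the 3′ end of the transcript exceeded that at the 5′ end by 49.7 to 63.7 times on the 5 brain arrays and by 3.09 to 3.4 times on the 3 aorta arrays. For Gapdh these ratios were 14.9 to 23.9 in brain and 3.44 to 3.68 in aorta. No brain array of either genotype overlapped an aorta array. Brain cells were lysed in a column-kit buffer as they were sorted while aorta was extracted with Trizol, so RNA handling, the shortage of 5′ signal in brain and the tissue cannot be told apart in any comparison here. By the labels, RNA of both tissues had been checked for integrity by electrophoresis before use.

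**Figure D1:**
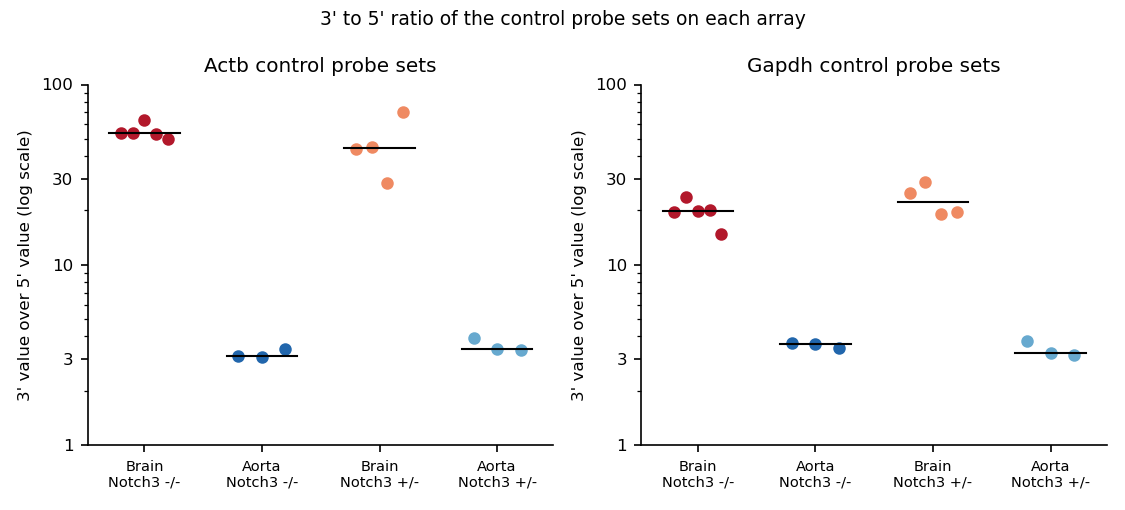
Ratio of the 3′ to the 5′ control probe set of Actb (left) and Gapdh (right) on each of the 15 arrays, on a log axis, with a line at the median of each group. All brain arrays of both genotypes lie above all aorta arrays, at 49.7 to 63.7 against 3.09 to 3.4 for Actb in Notch3 -/-.

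Probe sets of a gene often gave different readings. Of 2634 genes with at least 2 probe sets past 5%, 929 (35.3%) had probe sets past 5% in both directions, and 148 moved at least 2-fold each way. Over the 4766 genes with at least 2 tested probe sets, the tissue difference at the brightest and at the next brightest correlated at r = 0.587, a description across genes that share the same arrays. The next brightest lay lower for brain by 1 or more on the log2 scale in 24.7% of them and higher by as much in 14.7%. Each gene below is given at its brightest probe set, and others are given for the members where they turn the direction or fail to pass. The position of each probe set on its transcript was not used here, so whether the disagreement follows the distance from the 3′ end was not tested.

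**Figure D2:**
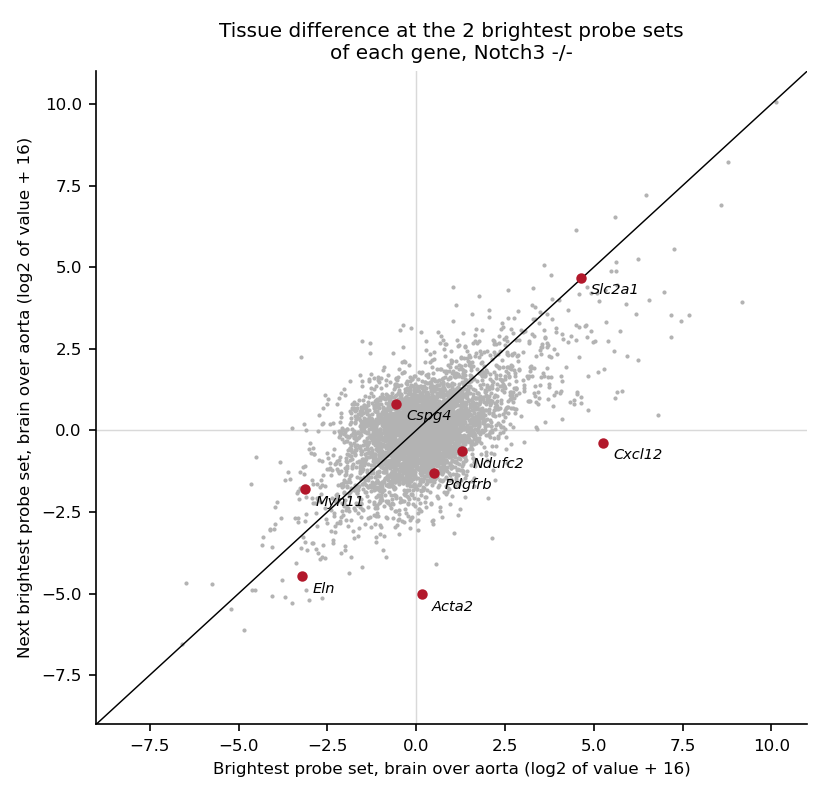
Brain over aorta difference in Notch3 -/- (log2 of value + 16) at the brightest probe set of each gene (horizontal) and at the next brightest (vertical), 4766 genes, with the line of equality. Slc2a1 and Eln keep their direction at both, while Acta2 reads 0.15 at the brightest and -5.03 at the next.

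The contents of each preparation were checked against marker lists. Of 32 tested pericyte markers 23, among them the targeted gene Notch3, were higher in brain and 6, such as Abcc9 and Mcam, in aorta. Anpep averaged only 16.8 in brain. Vtn, S1pr3, Rgs5, Pdgfrb and Kcnj8, all known from brain pericytes, were bright in the brain preparation, and Rgs5 and Pdgfrb were bright in aorta as well. Markers of other brain cells were also bright in the brain preparation. The summed intensity of 27 endothelial markers was 65952 to 79399 on the brain arrays against 8755 to 9618 in aorta, that of 18 oligodendrocyte markers 65787 to 76006 against 3909 to 4548, and that of 21 astrocyte markers 43509 to 68420 against 4852 to 5093. The 17 markers of choroid plexus, ependyma and meningeal epithelium summed to 22428 to 31472 in brain against 3739 to 3991 in aorta. For 20 neuron markers the sums were 6019 to 8144 against 2407 to 2967. In aorta the 21 fibroblast markers summed to 59707 to 62746 against 9951 to 15281 in brain, and 27 markers of fat to 17050 to 29188 against 3590 to 4532. Of the other classes looked for, 21 of 28 striated muscle and 10 of 15 lymphocyte markers averaged under 50 in brain, as did 19 and 13 of them in aorta. By these markers the brain RNA holds transcripts of endothelium, glia, neurons and choroid plexus, which the label does not name, beside those of mural cells. The aorta RNA holds those of fibroblasts and fat. The part of these cells in each result was not tested. In such bulk RNA fewer cells of a type and less RNA per cell cannot be told apart.

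In the absence of Notch3 the tissues differed at most probe sets. Values were compared as log2(value + 16) with limma, and a probe set past 5% has a Benjamini-Hochberg adjusted p below that level. Of 22519 probe sets tested, 14076 passed (62.5%), 7558 higher in brain and 6518 higher in aorta. Brain and aorta arrays did not overlap at 12893 of these. Higher in brain were thus 53.7% of the calls. Centring each array on its median shifted the median difference of all probe sets by -0.19 and took this share to 43.2%, so small differences have no firm sign across tissues. Past 5% and at least 4-fold were 2060 probe sets (9.15%), 1152 higher in brain and 908 higher in aorta. Taken as 1 brightest probe set per gene, 35.5% of 11949 tested genes were higher in brain and 29.6% higher in aorta, 6.4% and 3.89% by 4-fold or more, and every tested probe set of the gene passed in the same direction for 25% and 22.4%. These shares are the background for the gene counts below. A gene that was dim in a tissue entered the test only through the other, so a count over tested genes follows in part from the brightness filter. The median difference over all 18193 genes was 0.12 on the log2 scale.

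The largest differences lay in genes of choroid plexus, barrier and myelin in brain and of matrix and fat in aorta. Highest in brain over aorta was Ttr, transthyretin, a product of the choroid plexus. In array order A, B, C, D and F its values were 26643, 22621, 18932, 26891 and 23235, and in aorta (5558, 5559 and 6167) they were 4.36, 5.54 and 4.99. Every brain array exceeded every aorta array, and the difference was 10.13 ± 0.13 (log2, SE; adjusted p = 6.53e-15). Next came the barrier organic anion transporter Slco1a4 (9.33), the myelin genes Mobp (9.18) and Mbp (8.78), the secreted pericyte protein Vtn (8.57), Prom1 (8.42), the perineuronal proteoglycan Bcan (7.68), the thyroid hormone transporter Slco1c1 (7.48) and the estrogen receptor Gper1 (7.46). Folds from this scale understate those of genes that were dim in a tissue. Mbp shows the limit of a single reading: its probe sets ranged up to 9.72, and the least of them read 0.18 and did not pass.

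Highest in aorta over brain was Sost, sclerostin, a secreted Wnt antagonist known from bone. It read 3932, 2328 and 2430 in aorta and 3.45 to 15.6 in brain, a difference of -6.93 ± 0.21 (adjusted p = 2.16e-11). The elastic fibre protein Mfap4 followed at -6.91, then the dermal matrix protein Dpt at -6.70 and the fat genes Fabp4 at -6.59 and Car3 at -6.47. Others of the 15 largest were the actin-binding profilin Pfn1 (-5.79), the NADPH oxidase Nox4 (-5.75), the cytokine-like Cytl1 (-5.24), the matrix protein Postn (-5.01), Itgbl1 (-4.99) and Scube3 (-4.86). Aorta array 6167 was the highest for both fat genes, with Fabp4 at 4596 against 2826 and 2861. The rule that picked the 15 largest in each direction took only genes whose groups did not overlap, so the lack of overlap is no result for them. Over all 22519 tested probe sets, the groups did not overlap at 13503.

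Notch3 itself was low in both tissues. Its values were 228, 150.3, 249, 217 and 206 in brain and 80.1, 97.9 and 146 in aorta. The brain arrays lay just above the aorta arrays, without overlap, by 0.88 ± 0.20 (adjusted p = 0.00158). In Notch3 +/- mice the same probe set averaged 2616 ± 222 (SD, n = 4) in brain and 401 ± 47.2 (n = 3) in aorta, a tissue difference of 2.66. A signal is thus still read in the brain preparation without intact Notch3, and whether the probe set lies within the disrupted part of the gene was not tested. A second, dimmer probe set fell under the brightness filter.

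Contractile genes stood higher in aorta as a group. Of 38 on the array, all tested, 26 were higher in aorta and 6 in brain, 17 and 2 of them by 4-fold or more, and 23 were higher in aorta at every tested probe set. The median difference was -1.96, beside 0.12 over all genes. Myh11, the smooth muscle myosin heavy chain, read 1022, 1502, 1257, 859 and 541 in brain and 8643, 8845 and 8420 in aorta. The brain arrays all lay far below, with F the lowest, and the difference was -3.12 ± 0.25 (adjusted p = 1.33e-07). Tagln, the actin-binding transgelin, read 651, 1481, 1218, 1399 and 729 in brain and 9444, 9516 and 8754 in aorta. Here A and F were the lowest brain arrays, and the groups were again far apart, by -3.13 ± 0.24 (adjusted p = 1.07e-07). Cnn1, the thin-filament protein calponin, was between 106 and 199 in brain and at 4154, 4621 and 2475 in aorta (-4.59), and the enteric-type actin Actg2 between 44.8 and 125 against 1640 to 2220 (-4.44). Myl9 differed by -2.64, Ldb3 by -4.52 and the myosin kinase family member Mylk4 by -4.64. The dimmer probe sets of Ldb3 read -0.94 and -0.82, and that of Myh11 -1.81, all past 5% in the same direction.

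Acta2, the smooth muscle actin by which mural cells are often recognised, did not follow at its brightest probe set. It read 12265, 15262, 12241, 15039 and 9728 in brain and 11462, 11250 and 11632 in aorta. The groups overlapped, and the difference of 0.15 ± 0.15 did not pass (adjusted p = 0.379). The aorta values were close to the highest of any probe set on those arrays, 13046 to 13542, while the brain arrays reached 22148 to 30222, and the part of a signal ceiling in this reading was not tested. Quantile normalization turned it to -0.76, which passed. At the other 2 probe sets Acta2 was higher in aorta, at -5.03 and -3.83, with means of 49.5 and 32.4 in brain against 1961 and 681 in aorta. Which of these readings describes the transcript as a whole was not tested.

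A small number of contractile genes ran the other way. Pln, phospholamban, the brake on the calcium pump of the sarcoplasmic reticulum, read 1140, 1365, 1182, 1255 and 812 in brain and 99.5, 77.7 and 79.5 in aorta. No array overlapped, the difference was 3.51 ± 0.17 (adjusted p = 1.23e-09), and its other probe sets passed in the same direction at 0.63 and 2.56. Casq2, the calcium-storing calsequestrin of the same organelle, was higher in brain by 2.11 ± 0.20 (adjusted p = 7.41e-07), with 129 to 252 in brain and 25.6 to 35.6 in aorta. The intermediate filament genes Synm (1.51) and Des (0.94) were higher in brain too, though the second tested probe set of Des, at 0.43, did not pass.

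**Figure D3:**
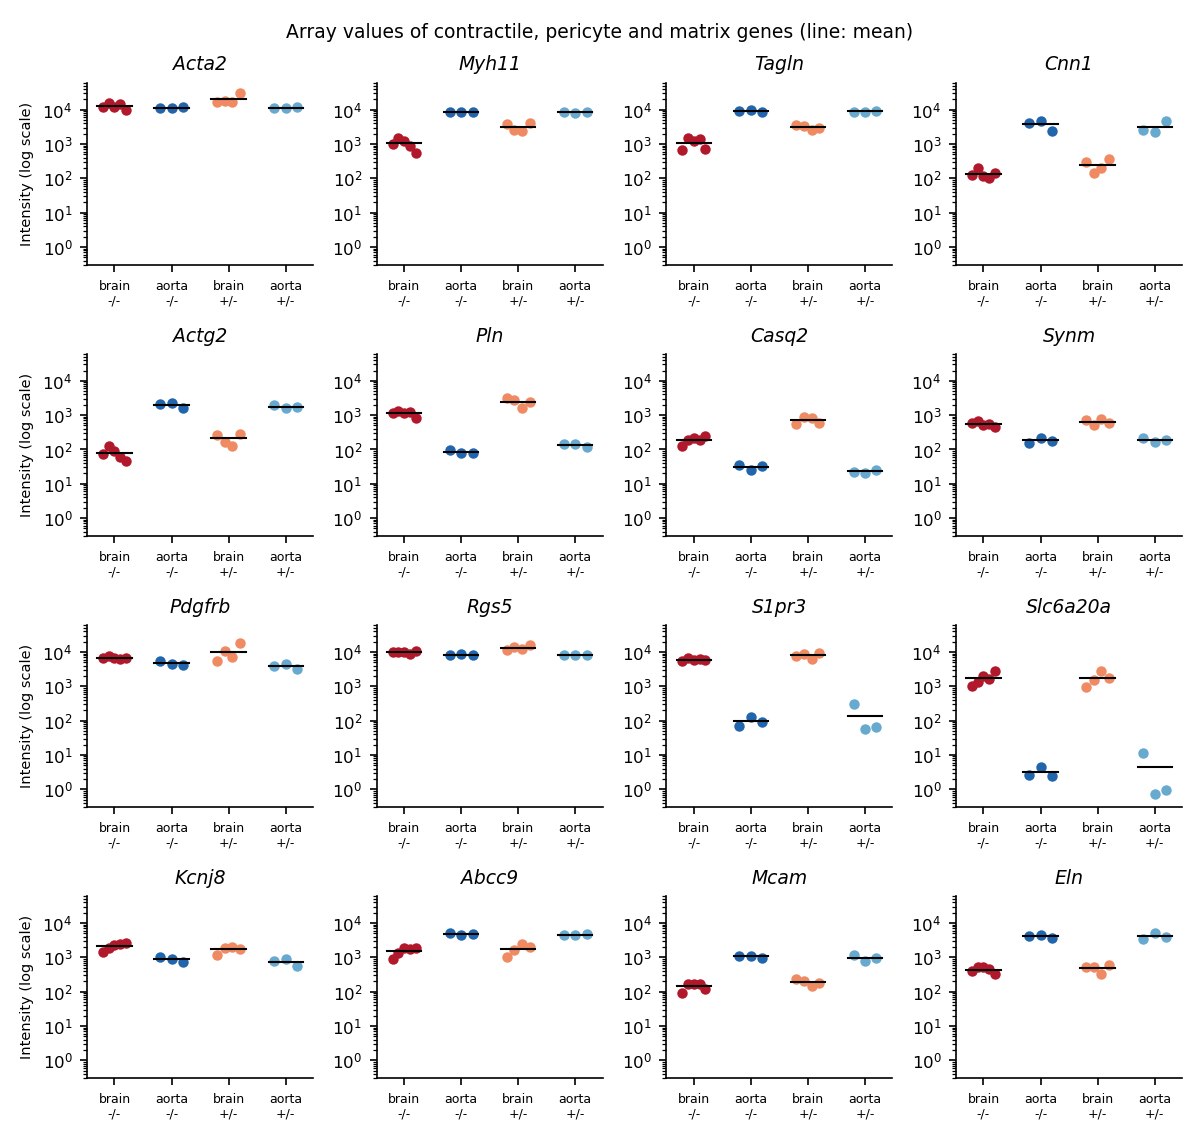
Intensity on a log axis of 16 contractile, pericyte and matrix genes on each of the 15 arrays at the brightest probe set, with a line at the group mean. Myh11, Tagln and Cnn1 are lower in brain than in aorta in both genotypes, S1pr3 and Slc6a20a are far lower in aorta, and Acta2, Pdgfrb and Rgs5 are bright in both tissues.

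Regulators of the contractile programme and of mural identity did not lean as a group. Of 30 tested, 14 were higher in brain and 10 in aorta, with a median of 0.07 over the 34 on the array. All tested genes gave shares of 35.5% and 29.6%. Srf, serum response factor, averaged 299.8 ± 35.3 (SD, n = 5) in brain and 648 ± 95.7 (n = 3) in aorta, a difference of -1.07 ± 0.15 (adjusted p = 2.44e-05), and its second probe set at -0.30 did not pass. Its coactivator Myocd, dim and below the filter, averaged 20.8 in brain and 94.1 in aorta. The related coactivators were split, with Mrtfb higher in brain (1.28) and Mrtfa higher in aorta (-0.996). Other transcription factors separated the tissues more widely. Zic1, a zinc-finger factor of the developing nervous system, read 1059 to 2186 in brain and 15.3 to 21.8 in aorta, a difference of 5.60 ± 0.20 (adjusted p = 7.28e-11). Foxq1 (4.93), which is in the list of barrier genes, Tbx3 (3.69) and Klf4 (2.96) were also higher in brain. Gata6 (-3.28), Meox2 (-3.09) and Foxc2 (-2.99), factors of mesodermal vessels, were higher in aorta, and no array overlapped for these.

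Pericyte markers were higher in brain on the whole. Of 33 on the array 32 were tested, 23 were higher in brain and 6 in aorta, 14 and 1 by 4-fold or more, and the median was 1.21. The list includes Notch3 itself, which counts among the 23. S1pr3, a sphingosine-1-phosphate receptor, read 5462, 6586, 5842, 6088 and 6023 in brain and 67.5, 129.7 and 89.8 in aorta. The brain arrays were tightly grouped and none overlapped the aorta arrays (5.79 ± 0.16, adjusted p = 8.15e-12). Slc6a20a, an amino acid transporter, read 1011 to 2736 in brain and 2.45 to 4.42 in aorta (6.43 ± 0.25, adjusted p = 1.81e-10). Kcnj8, the pore of the vascular ATP-sensitive potassium channel, was higher in brain by 1.21 ± 0.19 (adjusted p = 7.97e-05). Its partner Abcc9, the sulphonylurea receptor, went the other way at -1.67 ± 0.21 (adjusted p = 9.55e-06), with 902 to 1898 in brain and 4630 to 4976 in aorta, and its other probe sets lay at -1.47 and -1.74.

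Rgs5, Pdgfrb and Cspg4, genes much used to identify pericytes, differed by less than 2-fold between tissues at their brightest probe sets, and their probe sets disagreed in direction. Rgs5, a regulator of G-protein signalling, read 10017, 10272, 10181, 8957 and 10376 in brain and 8182, 8531 and 8412 in aorta. The arrays did not overlap, yet the difference of 0.25 ± 0.11 did not pass (adjusted p = 0.0591). It passed at about the same size with array weights, weights per tissue, the 75th percentile filter or brain array D left out, while quantile normalization turned it to -0.38. The other probe sets of Rgs5 read -2.06, 1.49 and -2.91. Pdgfrb, the receptor through which endothelium recruits mural cells, was higher in brain by 0.51 ± 0.13 (adjusted p = 0.00326) but higher in aorta at its other probe set (-1.30), and quantile normalization took the brightest to 0.15 (adjusted p = 0.287). Cspg4, the NG2 proteoglycan, was higher in aorta (-0.58 ± 0.19, adjusted p = 0.0165) with overlapping arrays, and higher in brain by 0.81 at its other probe set. Without aorta array 5559 the first of these was -0.42 (adjusted p = 0.108). Anpep, the CD13 antigen, was dim in both tissues, with 5.05 to 50.3 in brain and 31.5 to 75.4 in aorta. Mcam (-2.80) and the mural factor Tbx18 (-1.58) were higher in aorta.

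Ion channels and vasoactive receptors were split between the tissues about as all tested genes were. Of all tested genes 35.5% were higher in brain and 29.6% in aorta. Among 27 tested channel and pump genes 11 were higher in brain and 8 in aorta, and among 33 receptor and cyclic nucleotide genes 12 and 11. Kcnma1, the pore of the large-conductance calcium-activated potassium channel, averaged 62.9 ± 9.98 (SD, n = 5) in brain and 504 ± 18.6 (n = 3) in aorta (-2.73 ± 0.15, adjusted p = 4.83e-09). Its other probe sets, at -0.18 and 0.46, did not pass. Its subunit Kcnmb1 (-1.77), the calcium channel subunit Cacna2d1 (-3.29) and the release channel Ryr2 (-1.79) were higher in aorta too, but a second probe set of Kcnmb1 (-0.07) and 1 of the other probe sets of Cacna2d1 (-0.28) did not pass. In brain the sodium pump subunit Atp1b2 (2.66), known from astrocytes, the IP3 receptor Itpr2 (1.76) and the potassium channel Kcna5 (1.62) were higher, with 1 of the other probe sets of Itpr2 at 0.29 and not past 5%. Of receptors, P2ry14 (3.00) and the endothelin receptor Ednrb (1.93) were higher in brain, though 1 of the other probe sets of Ednrb did not pass (0.46). The subunits of soluble guanylate cyclase, Gucy1a1 (-1.87) and Gucy1b1 (-2.78), and the CGRP receptor partner Ramp1 (-2.95) were higher in aorta, although single other probe sets of Gucy1a1 (0.17) and Ramp1 (1.60) lay on the other side. Agtr1a, the angiotensin receptor, averaged 113 ± 22.4 and 100.3 ± 13.4 and did not pass (0.14, adjusted p = 0.504).

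In the rest of the Notch pathway 15 of 34 tested genes were higher in brain and 12 in aorta. The shares of all tested genes were 35.5% and 29.6%. Of the receptors, Notch1 (2.49) and Notch4 (1.89), the receptors of endothelium, were higher in brain at both their probe sets. Notch2, the other receptor of smooth muscle, read 384 to 520.4 in brain and 1739 to 1910 in aorta (-2.02 ± 0.13, adjusted p = 2.03e-08), with no difference past 5% at its second probe set (0.02). Of the ligands Jag2 was higher in brain by 4.58 ± 0.15 (adjusted p = 2.86e-11) and Jag1 higher in aorta (-0.62 ± 0.16, adjusted p = 0.00489). Of the targets Hes5, known from neural stem cells and astrocytes, was higher in brain (4.61), and Hey2, the arterial repressor, read 52 to 113 in brain and 609.8 to 721 in aorta (-2.78). Mfng, which adds sugars to Notch receptors, and Nrip2 were higher in brain by 2.59 and 2.77.

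Growth factor pathways that link endothelium and mural cells leaned to brain, with 18 of 26 genes higher there, 5 higher in aorta and a median of 0.96. Pdgfb, the endothelial ligand of Pdgfrb, read 355 to 415 in brain and 50.3 to 71.3 in aorta (2.39 ± 0.15, adjusted p = 1.14e-08). The VEGF receptor Flt1 (6.25) and the ligands Vegfc (3.48) and Pgf (2.49) were higher in brain. Pdgfra (-3.10), the receptor of fibroblasts and oligodendrocyte precursors, and the ligands Pdgfd (-1.72) and Pdgfa (-1.07) were higher in aorta. In the TGF-beta and BMP list 23 of 38 tested genes were higher in aorta and 12 in brain. The latent TGF-beta binding proteins Ltbp1 (-3.92) and Ltbp2 (-2.65) and the receptor Tgfbr1 (-2.64) were higher in aorta, while the endothelial coreceptor Eng (3.15), the ligand Bmp5 (3.15) and the receptor Tgfbr2 (0.76) were higher in brain.

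Some secreted Wnt antagonists were among the genes that stood out in aorta. Of 31 Wnt genes tested 17 were higher in aorta and 11 in brain. Sfrp2, a secreted Frizzled-related protein, read 165, 189, 209, 192 and 181 in brain and 3477, 3163 and 3546 in aorta (-4.07 ± 0.12, adjusted p = 1.92e-11). Wif1 (-4.25) and Frzb (-2.84), which also bind Wnt proteins, and Dkk3 (-3.11) were higher in aorta without overlap. Apcdd1 (4.77) and Axin2 (2.25), both readouts of Wnt signalling known from barrier endothelium, and the ligand Wnt5b (2.48) were higher in brain. Hox genes, which record position along the trunk, were mostly dim: 15 of 31 were tested, 8 were higher in aorta and 1 in brain. Hoxb3 averaged 483 ± 60.2 (SD, n = 3) in aorta and 49.1 ± 17.5 (n = 5) in brain (-2.98), Hoxb4 differed by -2.46, Hoxb6 by -2.33 and Hoxa5 by -1.02. The gene higher in brain was the cofactor Pbx3 (1.55), whose other probe set did not pass (0.09), so 0 genes of the list were higher in brain at every tested probe set.

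Many extracellular matrix genes were also higher in aorta. Among elastic fibre genes 24 of 27 tested were higher in aorta and 1 in brain, 13 by 4-fold or more in aorta, with a median of -1.52. Eln, elastin, read 408, 533, 509, 445 and 323 in brain and 4296, 4600 and 3713 in aorta. No array overlapped (-3.21 ± 0.16, adjusted p = 1.81e-09), and the second probe set read -4.48. Fbln5 (-4.28), Mfap5 (-4.84) and the crosslinking enzyme Loxl1 (-4.34) were higher in aorta. Mfap2, the single elastic gene higher in brain (1.14), was higher in aorta at its other probe set (-1.58). Interstitial collagens had 15 of 22 tested genes higher in aorta and 3 in brain, with Col1a2 at 2834 to 4183 in brain against 10013 to 10688 in aorta (-1.53) and Col3a1 (-2.56), Col6a3 (-3.84) and Col14a1 (-2.67) further apart. The other probe sets of Col1a2 read -4.19 and -1.91. Its brightest was near the highest values on the aorta arrays, and the part of a signal ceiling was not tested. Col8a1 was higher in brain (2.08). Among proteoglycans, 15 of 24 were higher in aorta, including Dcn (-3.61), Lum (-3.66), Bgn (-2.09) and Vcan (-4.77), and 4 in brain. Fmod was among the 4, at 0.86 with overlapping arrays, and its 5 other probe sets lay at -0.07 to -0.84. In aorta Bgn averaged 12944 and Col3a1 10626, also near the highest values on those arrays. The part of a signal ceiling in their differences was not tested.

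The basement membrane, which both preparations share, was divided by chain: 11 of 28 genes were higher in brain and 12 in aorta. Among all tested genes these shares were 35.5% and 29.6%. The ubiquitous chains Col4a1 (0.87) and Col4a2 (0.86) were higher in brain, with the second probe set of Col4a1 at -0.15 and not past 5%. The chains Col4a5 (-3.19) and Col4a6 (-4.00), known from smooth muscle, were higher in aorta. Col4a6 read 42.7 to 58.1 on 4 brain arrays and 1.57 on F, against 629 to 914 in aorta. Agrn, the heparan sulphate proteoglycan agrin of the barrier, averaged 4232 ± 269 in brain and 672 ± 110.1 in aorta (2.64), and the laminin receptor Itga6 differed by 4.07. Itga8, an integrin of smooth muscle, differed by -3.10. Proteases followed both ways, with Mmp2 (-2.53), Mmp3 (-3.98) and Serpinf1 (-3.98) higher in aorta, and Plat (1.65) and Timp4 (3.84) higher in brain. The other probe set of Timp4 did not pass (0.75).

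Endothelial and barrier genes were nearly all higher in brain. All 27 barrier transporters and junction genes were higher in brain, 23 of them by 4-fold or more, with a median of 4.35, and 26 passed at every tested probe set. Slc2a1, the glucose transporter of the barrier, read 21089, 20401, 16237, 19136 and 19854 in brain and 827, 762 and 699.8 in aorta. The groups were far apart (4.63 ± 0.12, adjusted p = 4.96e-12), and the other probe sets read 4.68 and 3.29. The drug efflux pumps Abcb1a (6.48) and Abcg2 (3.90) and the tight junction protein Cldn5 (5.58) showed the same order. Of 27 general endothelial markers 24 were higher in brain and 2 in aorta, led by Adgrl4 (5.62) and Adgrf5 (5.47), with Kdr (2.34), Tek (1.41) and Cdh5 (1.07). Pecam1, although an endothelial antigen, read 58.1 to 107 in brain and 317 to 435 in aorta (-1.96), and Erg read -0.53, a call that was lost without aorta array 5558 (-0.48).

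Genes of glia, neurons and choroid plexus followed. Of 20 astrocyte genes tested 19 were higher in brain and none in aorta, and the median was 3.61, or 2.00 with the mean over all probe sets of a gene. Gfap read 149 to 251 in brain and 0.661 to 4.56 in aorta (3.52), the water channel Aqp4 differed by 5.57 and the glutamate transporter Slc1a2 by 5.12. Neuron genes were dimmer. Of 20 on the array 6 fell under the filter and 13 of the 14 tested were higher in brain, and 16 of the 20 averaged under 50 in aorta, so most could be tested only through brain. Among them, Snap25 was at 71.9 to 148 in brain (2.47), Nefl at 148 to 376 (2.67) and Camk2a at 361 to 715 (4.83), which did not pass at 1 of its other probe sets (0.63). Of 15 tested oligodendrocyte genes 13 were higher in brain and 1, Pdgfra, in aorta. Mal, a myelin proteolipid, differed by 6.18. Choroid plexus genes were higher in brain for 10 of 13, including the channels Kcnj13 (5.05) and Clic6 (5.94), while the water channel Aqp1 was higher in aorta (-3.36). Microglia and macrophage genes were mixed: Csf1r (2.27) and Cx3cr1 (1.21) were higher in brain, Tmem119 (-1.34) and Lyve1 (-1.45) in aorta. The other probe sets of Csf1r read 0.91 and -0.32, the latter not past 5%.

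On the aorta side, 17 of 21 fibroblast markers were higher in aorta and 2 in brain, with a median of -2.75. Fat genes were higher in aorta for 12 of 22 tested and in brain for 2. Adipoq, the adipocyte hormone adiponectin, read 577, 529 and 1108 in aorta and 1.11 to 15 in brain (-4.83), and Ucp1, the uncoupling protein of brown fat, 353, 203 and 479.6 against 1.88 to 21.3 (-3.77). Array 6167 was again the highest. Ppargc1a, a coactivator of mitochondrial genes, was higher in brain (2.57), with its dimmer probe sets at 0.58 to 0.91 and the lowest not past 5%.

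Genes of cell state also separated the preparations. Of 32 immediate early genes tested 26 were higher in brain and 3 in aorta, with a median of 1.51. Fos, a transcription factor induced within minutes, read 14764, 14760, 12075, 12080 and 9617 in brain and 2484, 796 and 3052 in aorta. Brain was higher on every array by 2.77 ± 0.33 (adjusted p = 6.40e-06), and aorta array 5559 was the lowest. Gadd45b followed (4.74), while Ccn2, a matrix-linked target of TGF-beta and YAP, was higher in aorta (-3.16). Chemokine and adhesion genes had 22 of 26 tested higher in brain and 1 in aorta. Il6 read 434 to 2164 in brain and 2.08 to 8.62 in aorta (5.63 ± 0.36, adjusted p = 1.71e-08), and Cxcl1 (5.62), Cxcl2 (5.97) and Ccl3 (3.43) were higher in brain too. Cxcl12 differed by 5.25 at its brightest probe set and by -0.38, not past 5%, at the other. Interferon genes were higher in brain for 18 of 25, such as Rsad2 (3.54) and Ifit1 (3.05), with the dimmest probe set of Rsad2 at 0.18 and not past 5%. In the heat shock and unfolded protein list 11 of 30 genes were higher in brain and 13 in aorta, with a median of -0.20. Among them the inducible chaperones Hspa1a (3.59) and Hspa1b (2.47) were higher in brain. Hsp90b1 of the endoplasmic reticulum was higher in aorta (-1.99), with its other probe set at 1.09. By the labels, brain cells were sorted before lysis and aorta was taken as explants, and this handling and the tissue cannot be told apart.

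Energy metabolism showed how far the probe set matters. Of 55 genes of oxidative phosphorylation 18 were higher in brain and 17 in aorta at the brightest probe set. These counts lay near the shares of all tested genes, 35.5% and 29.6%. At every tested probe set 1 gene was higher in brain and 15 in aorta, beside 25% and 22.4% of all tested genes. Only the count higher in brain lay far below its share. Ndufc2, a complex I subunit, was higher in brain (1.29) and higher in aorta at its other probe sets (-2.65 and -0.64). Uqcrc2 of complex III read 1.37 and -0.35. Atp5e, a subunit of ATP synthase, was higher in aorta (-2.15). Fatty acid oxidation had 12 of 21 genes higher in aorta and 3 in brain, among them the electron carrier Etfa (-2.74) and the fatty acid translocase Cd36 (-3.23). Of 27 glucocorticoid-induced and clock genes tested 11 were higher in brain and 4 in aorta, beside 35.5% and 29.6% of all tested genes. The clock output gene Dbp read 1517 to 3967 in brain and 394, 101 and 102 in aorta (3.89).

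**Figure D4:**
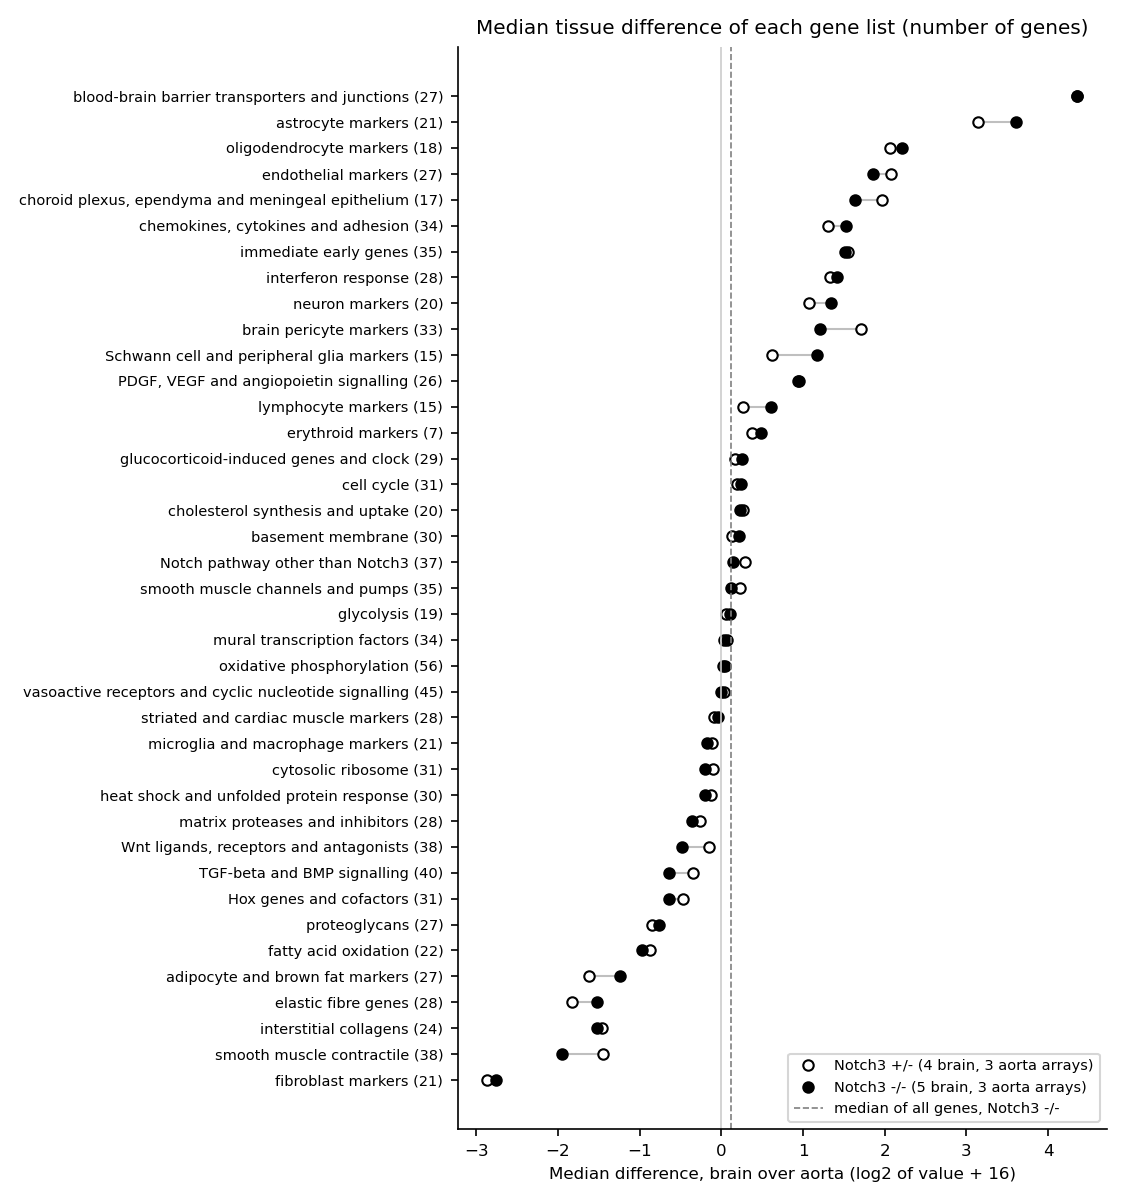
Median difference between brain and aorta (log2 of value + 16, higher values are higher in brain) of each of 39 gene lists in Notch3 -/- (filled) and Notch3 +/- (open) mice, with a dashed line at the median of all genes in Notch3 -/-. Barrier genes lie at 4.35 and 4.36, fibroblast genes at -2.75 and -2.86, and contractile genes at -1.96 and -1.44.

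Most tissue differences seen in mice with a copy of Notch3 were found again without it. In Notch3 +/- mice 11661 probe sets passed (51.8% of 22519). Of these, 10387 (89.1%) passed in the same direction in Notch3 -/-, which is 73.8% of the 14076 calls there. The share was 81.3% for differences under 2-fold, 94.1% at 2 to 4-fold, 97.1% at 4 to 8-fold and 97.4% at 8-fold and over. Some of these probe sets fell under the brightness filter in Notch3 -/-. Of those tested there, 1240 of 1244 at 4 to 8-fold and all 627 at 8-fold and over passed in the same direction. Of the 1921 probe sets past 5% and 4-fold in Notch3 +/-, 1611 were past both in Notch3 -/-, or 83.9% of the first and 78.2% of the second list. The comparisons share no array. Across the 21604 probe sets tested in both, the differences correlated at r = 0.963, a description across probe sets that share tissue and RNA handling. At 250 of them (1.16%) the genotypes gave differences 2-fold or more apart.

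Every list whose median lay 1 or more from 0 without Notch3 had a median on the same side with a copy. Barrier genes had a median of 4.35 without Notch3 and 4.36 with a copy, endothelial markers 1.86 and 2.07, fibroblast markers -2.75 and -2.86 and interstitial collagens -1.52 and -1.47. All 27 barrier genes, 25 endothelial and 17 fibroblast markers passed in the same direction in both. Contractile genes had medians of -1.96 and -1.44. Of the 38, 30 passed in the same direction in both and 34 had a lower brain over aorta difference without Notch3, beside 48.8% of all genes. Myh11 went from -1.39 in Notch3 +/- to -3.12, Tagln from -1.53 to -3.13, Cnn1 from -3.58 to -4.59 and Myl9 from -1.40 to -2.64. Pericyte markers had medians of 1.21 and 1.72, with 28 of 33 passing in the same direction in both. Notch3, the targeted gene, is a member of this list and counts among the 28. Whether a list differs between genotypes was not tested, and of these contractile genes Casq2 alone passed in the test of single probe sets that follows.

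That test, the difference between the tissue differences in 1 fit over all 15 arrays, passed 5% at 4 of 22519 probe sets (0.0178%). With no adjustment 1071 had p under 0.05, beside the 1126 that chance alone gives. The 4 were Casq2, Notch3, Depp1 and Rrad. Casq2 was higher in brain over aorta by 4.20 in Notch3 +/- and 2.11 in Notch3 -/-, a difference of -2.09 ± 0.29 (adjusted p = 0.0117). Its brain arrays read 548, 868, 837 and 601 (E, G, I and H) in Notch3 +/- and 129, 189, 211, 184 and 252 in Notch3 -/-, while aorta stayed between 20.4 and 35.6 in both. Every brain array with a copy of Notch3 thus lay above every brain array without it. Notch3 itself differed by -1.78 ± 0.25 (adjusted p = 0.0117), the targeted gene being brighter in brain than in aorta where a copy is present.

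Depp1, a FOXO-regulated gene of autophagy, was further apart without Notch3, at 6.57 against 4.47 (2.10 ± 0.30, adjusted p = 0.0117). In brain it averaged 2309 ± 468 (SD, n = 5) without and 1887 ± 210.2 (n = 4) with a copy. In aorta it read 7.54, 7.89 and 9.02 without and 116, 43.9 and 62.9 with a copy, so the change lay in dim aorta values. Rrad, a small GTPase that holds back calcium channels, turned direction: it was higher in brain by 1.38 in Notch3 +/- and higher in aorta in Notch3 -/- (-0.45; difference -1.83 ± 0.28, adjusted p = 0.0212). Its values were 846 to 1256 in brain and 1201 to 1878 in aorta without Notch3, where arrays overlapped, and 1534 to 2577 and 613.5 to 910.4 with a copy. The call in Notch3 -/- was lost without aorta array 5558 (-0.28, adjusted p = 0.212), 6167, or brain array D or F. That call was also lost with all 15 arrays in 1 fit, with no filter on brightness and with no intensity trend. Leaving out Notch3 +/- aorta array 6166 left 0 calls, leaving out 5561 or Notch3 -/- array 5558 left 1, and leaving out 5556 gave 7.

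The next probe sets by p did not pass. They were Cacna1h, the T-type calcium channel (-1.98, adjusted p = 0.137), Glul (1.34), Tesc (-2.40), Tcim (1.57), Crnkl1 (1.43) and Tagln (-1.61, adjusted p = 0.195). Tesc, a calcium-binding protein, was higher in brain over aorta by 2.96 with a copy and read 0.56 without, which did not pass (adjusted p = 0.146). Its brain arrays without Notch3 were 259, 765, 261, 251 and 338, so array B stood far above the rest. Among all probe sets 5 passed in opposite directions in the genotypes, chosen here after their values were seen: Rbbp9, Angptl4, Crnkl1, Rrad and 1 probe set of Mt1. Apart from Rrad none of these passed the test of the difference, and Crnkl1 read -1.48 at its other probe set in Notch3 -/-. In the list of glucocorticoid-induced genes some members passed in Notch3 -/- with a small difference in Notch3 +/-. Sgk1 was at 1.38 against -0.11 and Ddit4 at 2.00 against 0.41, and the difference between genotypes did not pass for them.

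**Figure D5:**
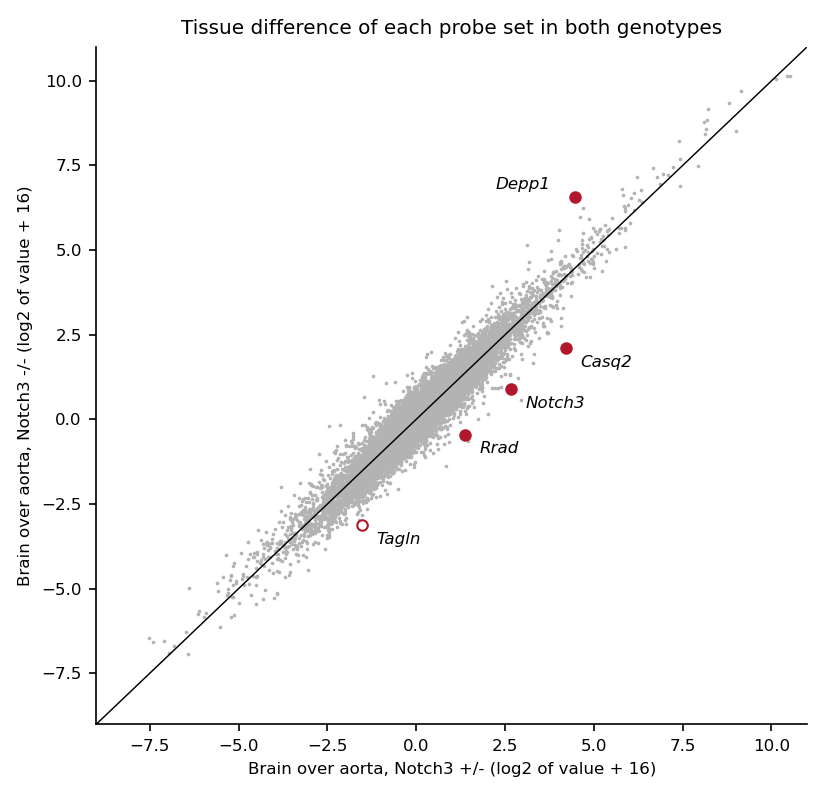
Brain over aorta difference (log2 of value + 16) of 21604 probe sets in Notch3 +/- (horizontal) and Notch3 -/- (vertical), with the line of equality. Filled points mark Casq2, Notch3, Depp1 and Rrad, which passed the test of the difference, and the open point marks Tagln, which did not (-1.61, adjusted p = 0.195).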

How the data were processed

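RNA was hybridised to Affymetrix mouse 430 2.0 arrays. Each value is an intensity on a linear scale, which the authors scaled to a target of 150 per array, per the design text. How probes were summarised, detection calls and background correction: not given in the sources used here. Array medians ran from 41.3 to 51.8 in brain and from 35.9 to 39.9 in aorta of Notch3 -/- mice. Per the labels' protocols, column-kit buffer received the sorted brain cells directly, while aorta RNA came through Trizol and then columns.

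Of 45101 probe sets, 64 controls were left out. Of the rest 34958 carried 1 gene symbol in the platform annotation (34754 updated through Entrez identifiers in RefSeq's GRCm38.p6 table, 204 kept as annotated), 932 several and 9211 none, and only those with 1 were named. Values were taken as log2(value + 16), and probe sets at or above the median mean of the arrays in a fit were tested. Two-sided tests came from lmFit and eBayes of limma 3.58.1 (trend = TRUE; R 4.3.3), adjusted by Benjamini-Hochberg over every probe set tested: brain against aorta in the 8 Notch3 -/- arrays, the same in the 7 Notch3 +/- arrays, and the difference between them over 15 arrays. The fit was tested on simulated data. The number of arrays limits the precision.

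Genes were read at the probe set brightest over the 8 arrays. Named were Notch3, the 15 largest in each direction that were past 5% without overlap, the first 6 members of a list and its 4 largest past 5% in each direction, and the 10 smallest p for the difference between genotypes. The arrays, the 39 gene lists and the rule were chosen with earlier results of these data known, so list counts are descriptions and carry no test. The alternatives were other pseudocounts, filters, scalings, weights, 1 fit of all arrays, other probe sets and each array left out. No replicate name occurs in more than 1 group, and so no paired analysis was possible.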

Additional observations from a re-analysis of the deposited data

Results flagged for a closer look

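In 8 of 176 described genes with a brain array of at least 50, a single Notch3 -/- brain array stood apart from the other 4. Chance gives this in about 1 in 20 groups. Array A was lowest for the myelin gene Mobp, at 5174 against 11020 to 13858, and for Pdgfb, at 355 against 403 to 415. Array B was highest for Tesc, at 765 against 251 to 338. Array C was highest for Anpep, at 50.3 against 5.05 to 11.8. Array D was lowest for Rgs5, at 8957 against 10017 to 10376, and for Ddit4, at 316 against 531 to 644. Array F was lowest for the basement membrane chain Col4a6, at 1.57 against 42.7 to 58.1, and highest for Itga6, at 1652 against 1052 to 1191.

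The tissue difference itself differed between genotypes at 4 probe sets by limma's test over 15 arrays. It was lower in Notch3 -/- than in Notch3 +/- by -2.09 for Casq2, -1.78 for Notch3 and -1.83 for Rrad, and higher by 2.10 for Depp1.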

How the results depend on the processing

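The number of probe sets past 5% fell to 8106 in Notch3 -/-, to 6963 in Notch3 +/- and to 6256 found again in both when only those above the 75th percentile were tested, which tests fewer. Those past 5% and 4-fold numbered 1297 there and 1148 with a pseudocount of 64, which shrinks differences of dim probe sets. The pseudocount of 64 also left 9 of 39 lists with a median 1 or more from that of all genes, against 17. The test between genotypes gave 13 with array weights and 15 with weights per tissue, against 4, and the cause was not tested. With an array left out the counts ran from 12155 to 14153 in Notch3 -/-, 2045 to 2125 past 4-fold, 9265 to 11995 in Notch3 +/-, 8669 to 10515 found again, 0 to 7 between genotypes and 15 to 17 lists.

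None of the 185 described genes past 5% changed sign under another pseudocount, filter, scaling, weighting, fit or left-out array. Acta2 and Rgs5, which did not pass, turned under quantile normalization. Other probe sets lay on the opposite side for 16 genes: Mef2c 0.16, Pdgfrb -1.30, Cspg4 0.81, Kcnma1 0.46, Ramp1 1.60, Gucy1a1 0.17, Notch2 0.024, Fmod -0.84, -0.085, -0.21, -0.069 and -0.20, Mfap2 -1.58, Col4a1 -0.15, Csf1r -0.32, Uqcrc2 -0.35, Ndufc2 -2.65 and -0.64, Hsp90b1 1.09, Cxcl12 -0.38 and Crnkl1 -1.48. The cause was not tested. About 49.0% to 57.2% of values lay under 50, where differences are compressed.
No paired analysis was possible because no replicate name occurs in more than 1 group.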
